A study of Mus musculus with 4 samples.

Results

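The epidermal growth factor (EGF) receptor family was followed at the level of RNA in 4 Affymetrix Mouse Genome 430A 2.0 arrays, 1 for each combination of receptor line and medium. The genes were chosen by name from the platform annotation, as 5 ligands (Hbegf, Ereg, Areg, Tgfa and Btc), 3 receptors (Egfr, Erbb2 and Erbb3) and 2 inhibitors (Errfi1 and Lrig1). Because Hbegf, Ereg and Errfi1 were already known to stand high in these arrays, the family was in part picked from the measured difference between the lines, and that difference is given below as a description with no test. Of the 10 genes, 9 had a probe set under their symbol, 21 probe sets in all, out of 22626 on the array that are not controls. Areg had none under its symbol and is not analysed here.

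The cells were mouse CH10T1/2, an embryonic fibroblast line able to form several mesenchymal tissues. All 4 cultures carried a stably transfected receptor for parathyroid hormone and PTH-related protein (PTHR1): the wild type (the WT line) or, for the R150C line, the variant that the labels trace to enchondromas, benign tumours of cartilage. Each line was kept without serum overnight and then given 1e-07 M PTHrP or carrier for 1 h, although the WT control array's own labels say no more than control. Each receptor stands for 1 line only, so line and receptor cannot be told apart; the labels do not say whether a line is a clone or a pool.

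EGF receptor ligands are made as membrane-anchored precursors that are released by metalloproteases of the ADAM family. Ligand binding pairs the receptors, whose kinase domains then signal through Ras and ERK and through PI3-kinase. Erbb2 binds no ligand of its own and Erbb3 has little kinase activity, so both act mainly as partners. Several ligands and the inhibitor Errfi1 are themselves early targets of growth factor signalling, so that the pathway carries both positive and negative feedback. In growing cartilage, EGF receptor signalling is known to act on the maturation and removal of growth plate cells.

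Each array reports a linear fluorescence intensity per probe set, called the signal here, whose level is not compared between probe sets. Differences are on the log2(signal + 16) scale after each array was centred on its median, and they understate changes of dim probe sets. The brightest probe set stood for a gene, and 6197 of 12393 genes lay above a filter on mean brightness equal to a signal of 62.6. Of the family, 6 genes passed it: Hbegf, Ereg, Tgfa, Egfr, Erbb2 and Errfi1. Hbegf passed through its signal in R150C cells, while Ereg and Errfi1 lay above that level in each of the 4 arrays. With 1 array per group there is no replicate error. Over the kept genes, departure from additivity put the SD of a difference between 2 arrays at 0.246 (log2), and that spread is the yardstick used below. After this centring the median difference of the kept genes was 0.22 for PTHrP in WT cells and 0.05 for PTHrP in R150C cells. It was 0.08 for R150C against WT cells without PTHrP and -0.07 with it. The array medians that the centring removed differed, at signals of 52.2 (WT control), 44.7 (WT PTHrP), 48.1 (R150C control) and 45.8 (R150C PTHrP). These shifts thus depend on the scaling, and small differences should be read against them.

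All 9 fibroblast markers lay above the filter. Their summed signal, set mostly by the brightest genes, was 36123 and 40606 in WT cells (control medium, PTHrP). In R150C cells it was lower, at 33846 and 31359. Gene by gene, their median difference between the lines was -0.03 in control medium and -0.42 under PTHrP. In control medium they went both ways, from -0.38 (Pdgfra) to 0.37 (Fn1), and no fibroblast marker was 2-fold apart in either medium. Of 8 epithelial markers, the cell type best known for these ligands, 1 lay above the filter (Krt8). The summed signal of the 8 was 162 to 199 in WT cells and 197 to 244 in R150C cells. Over the 4 arrays Krt8 read 65.2 to 83.9, Krt5 27.0 to 50.2, Krt14 19.9 to 39.6 and Krt18 9.2 to 28.0. Cldn4 read 17.2 to 27.5 and Ocln 6.3 to 10.7. The defining epithelial genes Epcam and Cdh1 read 1.4 to 3.5 and 7.0 to 12.8. In RNA of whole cultures, more cells with a transcript and more of it per cell cannot be told apart. Of the macrophage markers 1 of 5 and of the endothelial markers 0 of 4 passed the filter. The ratio of the 3' to the 5' Gapdh control probe sets was 0.845 and 0.991 in the control arrays and 1.17 and 1.21 in the PTHrP arrays (WT, then R150C), so it moved with the medium more than with the line, and its part in the PTHrP values was not tested.

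Among the ligands, 2 stood far higher in R150C cells and the others did not. Hbegf encodes heparin-binding EGF-like growth factor, a membrane-anchored ligand of Egfr and Erbb4. Its brightest probe set read 66.6 in WT control, 46.9 in WT PTHrP, 1629.8 in R150C control and 1689 in R150C PTHrP. Both R150C arrays therefore lay above both WT arrays, the lowest of them 24.5 times the highest WT signal. The log2 difference was 4.41 without PTHrP and 4.73 with it, the highest of all 6197 kept genes in each medium. The second Hbegf probe set read 50.6, 59.1, 1258 and 1261 in the same order, with differences of 4.35 and 4.06. Both Hbegf sets thus placed the R150C cells at least 21.3 times above the WT cells in signal in each medium.

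Ereg encodes epiregulin, another ligand of Egfr and Erbb4, and has 1 probe set. It read 117 and 123 in WT cells (control medium, PTHrP) and 1188 and 1067 in R150C cells. The lowest R150C signal was 8.66 times the highest WT signal, and the differences of 3.27 and 2.93 were the 4th and the 7th highest among the kept genes.

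Tgfa, transforming growth factor alpha, is a ligand of Egfr alone. Its brightest probe set read 76.9 and 61.3 in WT cells and 80.8 and 69.8 in R150C cells, and the lines overlapped. The differences of 0.15 and 0.12 lay within the spread of 0.246. The other Tgfa probe sets read between 16.2 and 37.7 and overlapped between the lines too. Btc, betacellulin, stayed below the filter. Its brighter probe set read 51.0 and 57.0 in WT cells and 57.8 and 54.6 in R150C cells, an overlap again, and the dimmer read 5.9 to 15.6.

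**Figure D1:**
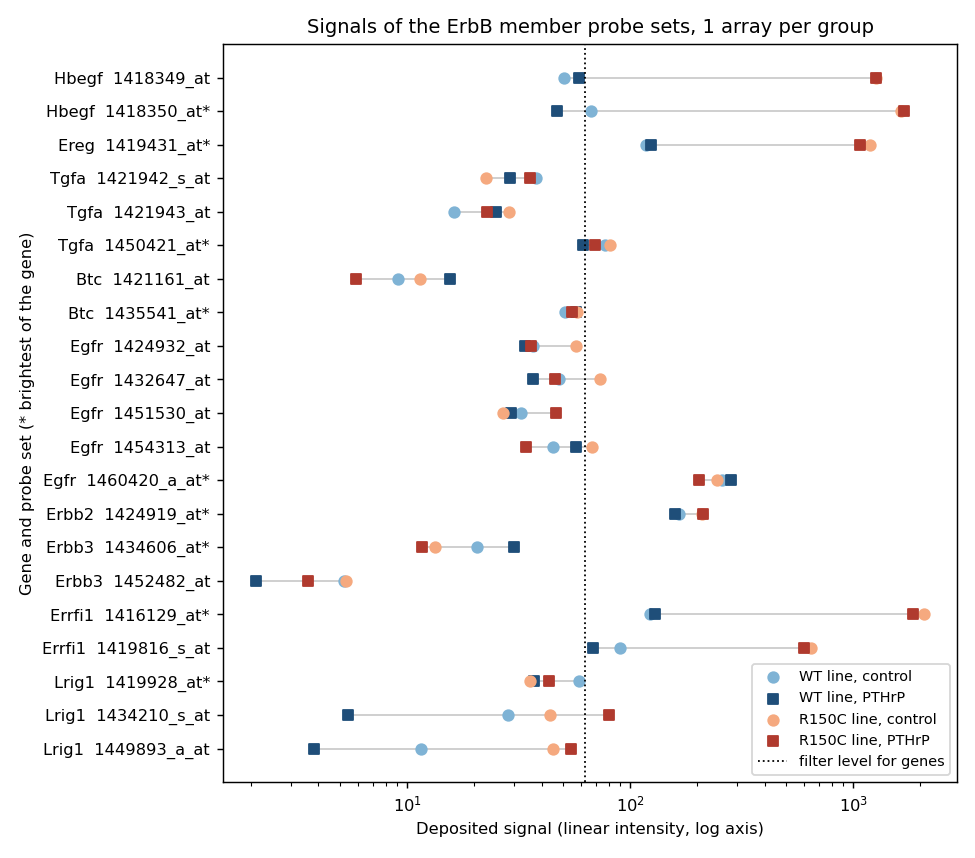
Deposited signal (log axis) of the 21 probe sets of the family in the 4 arrays; circles are control and squares PTHrP arrays, blue the WT and red the R150C line, points that coincide lie on top of each other, and the dotted line is the filter level of 62.6. Hbegf, Ereg and Errfi1 show the R150C arrays far to the right of the WT arrays. Lrig1 has them to the right in 2 of its 3 probe sets, on dim signals and with a smaller gap between the nearest arrays of the lines. Under PTHrP alone, the R150C signal in these 2 sets was 14.9 and 14.3 times the WT signal. The brighter Erbb3 probe set has them to the left, on dim signals. The remaining probe sets keep the arrays close together or mixed.

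The receptors did not share this pattern. Egfr, the receptor of every ligand above, had 5 probe sets that went different ways. The brightest, and the only Egfr probe set whose mean lay above the filter level, read 257 and 283 in WT cells and 244 and 204 in R150C cells. The R150C arrays lay below the WT arrays in signal, and the centred differences were 0.02 without and -0.47 with PTHrP. The former was -0.07 without centring and -0.10 after quantile normalization or kept-gene centring, so it has no settled sign. The other 4 Egfr probe sets read 27.0 to 72.9 and overlapped between the lines, and their differences ran from -0.08 to 0.57 in control medium and from -0.58 to 0.44 under PTHrP. No direction for Egfr is shared by its probe sets.

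Erbb2, the partner with no ligand of its own, read 165 and 158 in WT cells against 209 and 211 in R150C cells. The groups did not overlap, with a lowest R150C signal 1.27 times the highest WT signal. The differences of 0.40 and 0.36 were above the spread but under 2-fold, at places 1067 and 831 from the highest of the kept genes. Erbb3, the partner with little kinase activity, was dim. Its brighter probe set read 20.5 and 30.1 in WT cells and 13.3 and 11.6 in R150C cells, with no overlap and differences of -0.23 and -0.77. The other Erbb3 probe set read 2.1 to 5.3, too dim to give an order.

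Of the inhibitors, Errfi1 was far higher in R150C cells by both probe sets, while those of Lrig1 disagreed. Errfi1, also known as Mig6, binds the kinase domain of active EGF receptors and blocks it. Its brightest probe set read 122 in WT control, 129 in WT PTHrP, 2075 in R150C control and 1845 in R150C PTHrP. The lowest R150C signal was 14.3 times the highest WT signal, and the differences of 4.01 and 3.66 were the 2nd and the 3rd highest of the kept genes. The second Errfi1 probe set, of a type whose probes can match transcripts of more than 1 gene, read 89.9, 68.1, 643 and 600.1, with differences of 2.73 and 2.85. Both sets placed the R150C line higher by at least 6.68 times, and the size differed between them by over 1 log2 unit in control medium.

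Lrig1 encodes a transmembrane protein that binds EGF receptors and promotes their breakdown. Its 3 probe sets disagreed. The brightest read 58.9 and 37.0 in WT cells and 35.6 and 43.3 in R150C cells, an overlap, with differences of -0.45 and 0.14. Another read 28.3 and 5.4 in WT cells and 43.6 and 80.4 in R150C cells, with differences of 0.52 and 2.15. Like the second Errfi1 probe set, it is of a type whose probes can match transcripts of more than 1 gene. The last Lrig1 probe set read 11.5 and 3.8 against 44.9 and 54.5, with differences of 1.24 and 1.81. In the latter 2 the R150C arrays lay above the WT arrays, and the lowest R150C signal was 1.54 and 3.90 times the highest WT signal. None of the 3 had a mean above the filter level, so the call for Lrig1 depends on the probe set that stands for it.

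At 2-fold, 3 of the 6 kept family genes were higher in R150C cells in control medium, where 2.87% of all kept genes were, and 3 under PTHrP, where 2.16% were. They were Hbegf, Ereg and Errfi1 in both media. None was at least 2-fold lower, beside 0.565% of all kept genes in control medium and 0.726% under PTHrP. The choice of the family used this contrast, so nothing is read from these shares. Among all kept genes 178 were higher and 35 lower in control medium, a split of 139 and 50 without centring and of 126 and 60 after centring on the kept genes. The family count of 3 was the same under each of these. By the deposited signal alone, both R150C arrays lay above both WT arrays in 8 of the 21 probe sets and below in 2, beside 20.0% and 22.6% of all probe sets. Both Hbegf, both Errfi1, the Ereg, the Erbb2 and 2 Lrig1 probe sets made up the 8, and the brightest sets of Egfr and Erbb3 the 2.

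**Figure D2:**
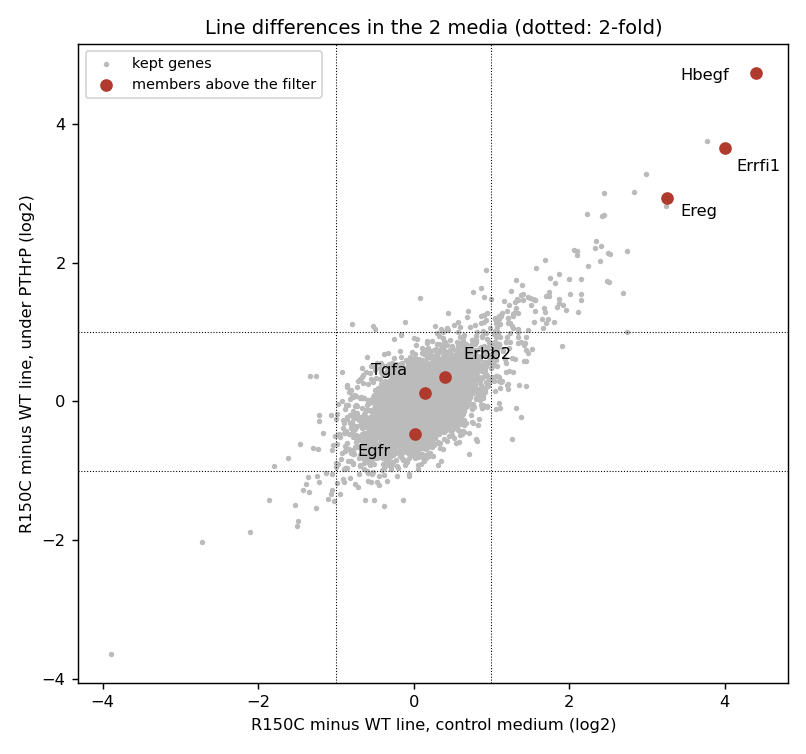
Difference between the R150C and the WT line in control medium (x axis) and under PTHrP (y axis), in centred log2(signal + 16), for 6197 kept genes (grey) and the 6 family genes above the filter (red); dotted lines mark 2-fold. Hbegf, Errfi1 and Ereg lie at the upper right end of all genes, while Tgfa, Egfr and Erbb2 lie within the central cloud.

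The sequence around the start of transcription is shown for Errfi1, the one of the 3 genes with the largest line difference for which a window was used here, and for Egfr, the receptor they act on, whose brightest probe set stayed within 2-fold. The sequences are RefSeq's, build GRCm38.p6, from 250 bases before to 50 after an annotated start, 5' to 3' on the plus strand. RefSeq gives Errfi1 2 starts, chr4:150853546-150853845 and chr4:150854820-150855119, and Egfr 1, chr11:16751953-16752252. Capitals mark matches, on either strand, to a motif searched by its letters: CRE (TGACGTCA), AP-1 (TGANTCA), EGR (GCGNGGGCG), ETS (CCGGAAG), TEAD (GGAATG), E-box (CACGTG), GLI (GACCACCC) and GC box (GGGCGG). The SRF CArG box was searched as a run of A or T bases of fixed length between CC and GG.
Errfi1, first start: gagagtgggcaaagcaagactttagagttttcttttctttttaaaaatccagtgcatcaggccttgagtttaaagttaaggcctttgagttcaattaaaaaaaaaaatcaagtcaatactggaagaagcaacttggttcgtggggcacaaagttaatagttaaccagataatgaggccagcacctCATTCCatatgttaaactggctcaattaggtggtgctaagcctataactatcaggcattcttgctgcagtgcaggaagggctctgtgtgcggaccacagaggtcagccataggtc
Errfi1, second start: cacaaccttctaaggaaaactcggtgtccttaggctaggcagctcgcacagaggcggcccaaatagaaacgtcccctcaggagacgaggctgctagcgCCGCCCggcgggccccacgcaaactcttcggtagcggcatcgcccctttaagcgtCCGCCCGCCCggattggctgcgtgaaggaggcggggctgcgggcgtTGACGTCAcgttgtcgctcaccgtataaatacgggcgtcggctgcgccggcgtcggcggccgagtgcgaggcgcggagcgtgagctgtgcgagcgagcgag
Egfr: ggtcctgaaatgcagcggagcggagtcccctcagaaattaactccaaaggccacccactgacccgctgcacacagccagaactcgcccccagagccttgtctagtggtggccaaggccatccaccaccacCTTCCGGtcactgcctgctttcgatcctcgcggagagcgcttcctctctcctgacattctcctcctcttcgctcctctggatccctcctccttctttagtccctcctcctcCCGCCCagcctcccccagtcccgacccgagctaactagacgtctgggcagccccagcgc

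The first Errfi1 window held 1 match, to the TEAD letters, and had 42.0% G and C. The second held 1 CRE match, whose first base lies at -51 from the start, and 3 GC box matches, of which 2 overlap, and had 66.7% G and C. The Egfr window held an ETS match and a GC box match, with 62.3% G and C. Of 32851 windows of the same length, 1.79% held the CRE letters, 14.7% TEAD, 35.7% a GC box, 8.86% ETS, 7.81% AP-1, 7.15% an E-box, 5.55% EGR, 1.63% a CArG box and 0.807% GLI. The median window had 52.7% G and C. A match describes these letters only, and the arrays do not tell which Errfi1 start was used.

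After 1 h of PTHrP, the 6 kept family genes stayed under 2-fold in both lines. Of all kept genes, 0.371% were changed 2-fold in WT cells and 0.226% in R150C cells. Beside shares this low, the absence of such a change among 6 genes says nothing particular to the family. In the WT line Ereg, Errfi1 and Egfr differed by 0.23, 0.23 and 0.30, close to the shift of 0.22 of all kept genes, Erbb2 by 0.11 and Tgfa by -0.10. After centring on the kept genes, Ereg stood at 0.04, Errfi1 at 0.04, Egfr at 0.11, Erbb2 at -0.07 and Tgfa at -0.28. Hbegf had a difference of -0.23 by its brightest probe set and 0.34 by the other, so its direction is not settled. The second Errfi1 probe set gave -0.16, against 0.23 by the brightest. In the R150C line the 6 kept members lay between -0.19 (Egfr) and 0.10 (Hbegf), all within the spread of 0.246.

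The largest PTHrP differences were in dim probe sets. Lrig1 read 28.3 in WT control and 5.4 after PTHrP in 1 probe set, a difference of -0.88, while in R150C cells the same set read 43.6 and 80.4, a difference of 0.75. All 3 Lrig1 probe sets had a negative difference in WT cells and a positive one in R150C cells. Their values ran from -0.88 to -0.31 and from 0.25 to 0.75. The difference between these responses was 0.58, 1.63 and 0.57 over the 3 sets, beside an SD of 0.348 over kept genes, which are brighter than Lrig1. With 1 array per group it has no test. Erbb3 had a difference of 0.50 in WT cells and -0.03 in R150C cells, on signals no higher than 30.1.

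**Figure D3:**
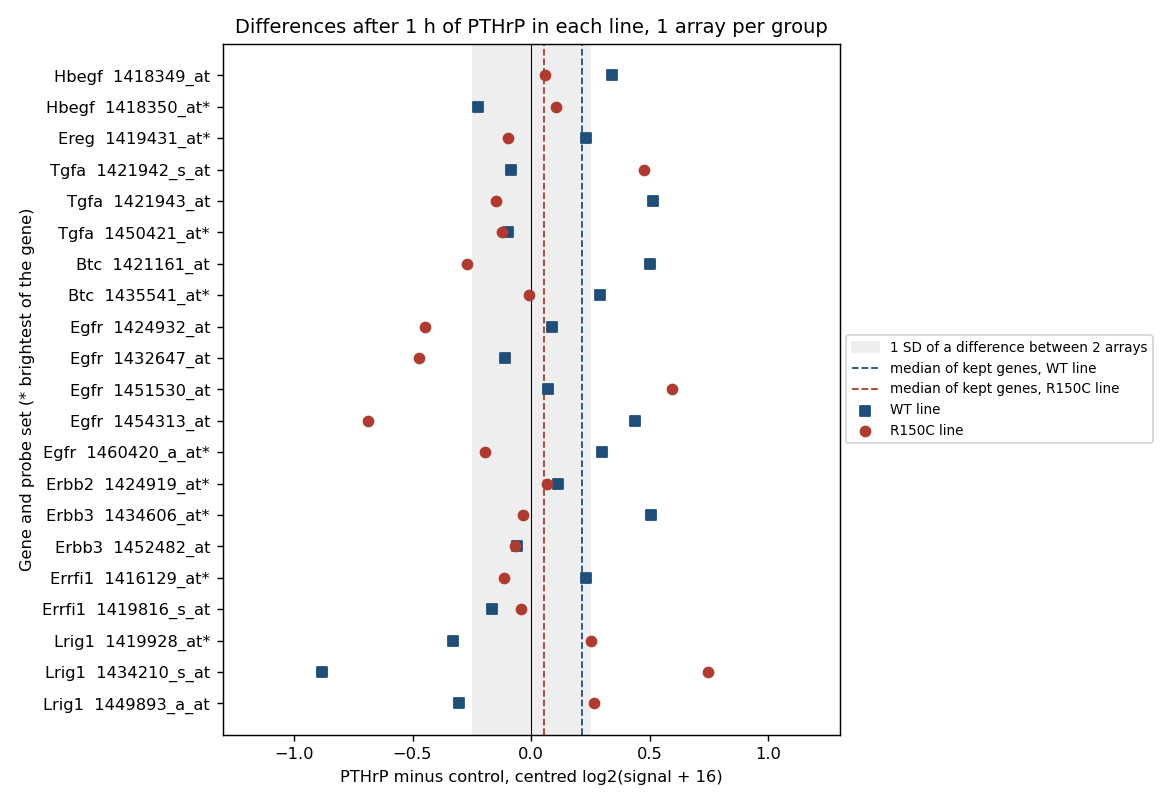
Difference between PTHrP and control in centred log2(signal + 16) for each probe set of the family, in WT cells (blue squares) and the R150C line (red circles); the grey band is 1 SD of a difference between 2 arrays and the dashed lines are the medians of the kept genes, 0.22 and 0.05. No probe set reached a 2-fold difference on this scale, which understates changes of dim probe sets. In deposited signal, 1 Lrig1 set read 28.3 in WT control and 5.4 in WT PTHrP. Lrig1 shows the lines on opposite sides of 0 in all 3 sets.

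The PTHrP effect common to both lines was the 1 effect that could be tested apart from the choice of the family. It was fitted with limma's additive model (line and treatment), with Benjamini-Hochberg adjustment over 6197 genes and the departure from additivity as its error. limma called 22 kept genes higher and 3 lower, or 0.403%, and none of the 6 kept family members. Without centring it called 1 gene, and 0 after quantile normalization or kept-gene centring. The members' differences ran from -0.11 (Tgfa) to 0.09 (Erbb2), each with an SE of 0.19, and limma's adjusted p ran from 0.851 to 0.931. Hbegf differed by -0.06 (adjusted p = 0.92), Ereg by 0.07 (0.912), Errfi1 by 0.06 (0.923) and Egfr by 0.05 (0.931) in that limma fit. After centring on the kept genes all 6 lay below 0, from -0.23 (Tgfa) to -0.03 (Erbb2), so the signs of Ereg, Egfr, Erbb2 and Errfi1 are not settled. The smallest unadjusted p of the members was 0.56. Over the alternative scalings, pseudocounts, probe set choice and filters the members' adjusted p in limma ran from 0.823 to 0.996. The fit gave every gene the same SE, and a p that misses the threshold does not show that PTHrP left these genes unchanged.

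The line difference was also described for further genes around the receptor. A list of 77 genes was followed, of which 61 had a probe set and 42 passed the filter. In control medium 12 of the 42 were at least 2-fold higher in R150C cells and 1 was lower, and under PTHrP 12 and 2. In both media 11 were higher and 1 lower, against 100 and 20 of all 6197 kept genes. The list's median difference was 0.36 and 0.19, against 0.08 and -0.07 over all kept genes. The list was written with results of these arrays known, so its count is no independent evidence of a direction. For the same reason, the split between roles below depends on which genes were listed and does not locate the line difference.

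The 4 further ligands with a probe set all lay below the filter. Nrg3, a neuregulin that binds Erbb4, read 1.7 and 5.7 in WT cells and 21.1 and 10.6 in R150C cells. Erbb4, the fourth receptor of the family, read 0.7 to 2.3. All 5 measured genes of ligand shedding passed the filter, and none was 2-fold apart. Adam12 came nearest, with signals of 102 and 118 in WT cells and 199 and 201 in R150C cells and differences of 0.96 and 0.67. Rhbdf1, an inactive rhomboid that guides a shedding protease to the cell surface, read 369 and 395 against 486 and 513, with differences of 0.47 and 0.34.

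Of the 6 kept inhibitor and turnover genes, Socs5, a suppressor of cytokine and EGF receptor signalling, was 2-fold higher in both media. It read 515 and 495 in WT cells and 1015 and 1035 in R150C cells, differences of 1.05 and 1.01. Among 6 kept Ras and ERK genes Rasa1, which switches Ras off, read 288 and 224 against 585 and 513, with differences of 1.07 and 1.11. Both are close to the 2-fold bound. In control medium Socs5 fell under it at 0.96 without centring, 0.93 after quantile normalization and 0.93 centred on the kept genes, and Rasa1 at 0.98, 0.97 and 0.95. With a pseudocount of 64 both lay under it in both media (Socs5 0.95 and 0.96, Rasa1 0.93 and 0.99), and with probe sets averaged Rasa1 stood at 0.80 and 0.77 and Socs5 at 1.04 and 0.94. Ptpn12, of the inhibitor and turnover list and named after its values were seen, was past the bound in control medium alone. It read 189 and 203 in WT cells and 440 and 389 in R150C cells, differences of 1.25 and 0.86. None of the 4 adaptor, 5 PI3-kinase and Akt or 3 STAT genes was 2-fold apart in either medium. Gab1, a docking protein of the receptor named after its values were seen, came nearest, with differences of -0.90 and -0.98. With a pseudocount of 1 it passed the bound in both media, at -1.08 and -1.14.

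Most of the listed genes that were at least 2-fold higher in both media were ERK feedback and target genes. Of 20 listed, 18 had a probe set and 13 passed the filter. Those below it, named after their values were seen, were not 2-fold higher in both media. Their differences were 0.16 and 0.49 (Spry1), 0.20 and 0.03 (Spry4), -0.39 and 0.47 (Egr3), 1.39 and 0.38 (Etv4) and 0.40 and 0.45 (Etv5). Of the 13 kept, 9 were higher in both media and Fos, a classic early transcription factor, was lower in both, where 1.61% and 0.323% of all kept genes were. Dusp6, which dephosphorylates ERK, read 90.1 and 76.9 in WT cells and 696 and 748 in R150C cells. Myc, the growth regulator, read 90.7 and 58.8 against 530 and 473. Phlda1, an early response gene, read 408 and 433 against 2276 and 1980.1, and Fosl1, an AP-1 subunit, 228 and 233 against 1284 and 1107. Spry2, an inhibitor of receptor kinase signalling, read 169 and 146 against 546 and 663, and Spred2, which acts on the Ras to Raf step, 125 and 136 against 458 and 382. Egr2, Ier3 and Ets1 completed the 9, with differences of 2.15 and 1.54, 1.56 and 1.47, and 1.21 and 1.13. When a gene's probe sets were averaged, Spry2, Spred2 and Ets1 were no longer 2-fold apart in both media, at 1.06 and 0.97 for Spry2 and 0.89 and 0.18 for Spred2, and Ets1 stood at 0.53 and 0.48 there. With a pseudocount of 64, Fos stood at -0.89 and -1.06 and Ets1 at 0.98 and 0.91. Fos read 303 and 297 in WT cells against 128 and 111. Egr1, another early transcription factor, named after its values were seen, lay in the same direction as Fos. It read 1741 and 1799 in WT cells against 865 and 832 in R150C cells, with differences of -0.91 and -1.12, and it passed the 2-fold bound in both media after quantile normalization (-1.05 and -1.05) or kept-gene centring (-1.03 and -1.12). Spred1, a relative of Spred2, was past the bound under PTHrP alone, with signals of 63.1 and 47.9 in WT cells against 132 and 165. Mcl1, a survival factor, was past it in neither medium, with differences of 0.36 and 0.72. Both were also named after their values were seen.

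**Figure D4:**
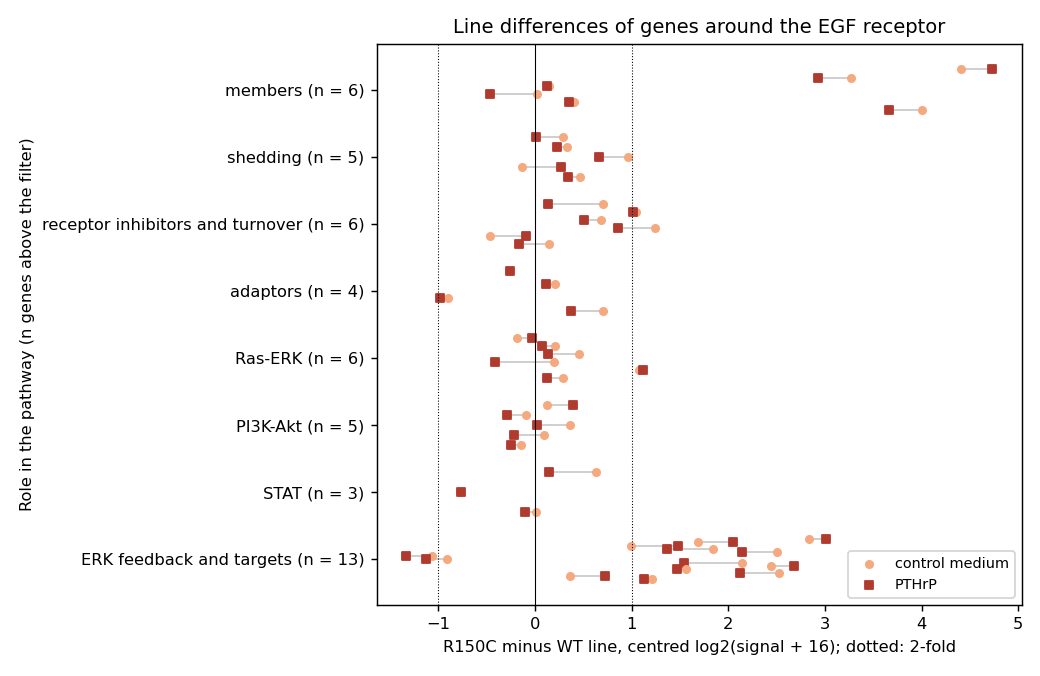
Difference between the R150C and the WT line in centred log2(signal + 16) for kept genes by role in the pathway, with control medium (circles) and PTHrP (squares) joined for each gene and dotted lines at 2-fold. Hbegf, Ereg and Errfi1 reach beyond 2-fold, with differences up to 4.73. Of the 13 kept ERK feedback and target genes, 9 lie beyond it on the higher and 1 on the lower side in both media. Socs5 and Rasa1 lie just beyond it in both media, and Ptpn12 in control medium alone. The adaptors, PI3-kinase and STAT genes stay inside it.

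The kept genes outside the family with the pattern closest to Hbegf, Ereg and Errfi1 were sought by Euclidean distance over the 4 arrays, after each gene was centred on its own mean. Closest to Ereg was Noct, a deadenylase-related clock output gene, at a distance of 0.13 (log2), which read 67.5 and 80.5 in WT cells and 727 and 679.7 in R150C cells. Dusp6 (0.31) and Has2, a hyaluronan synthase (0.35), followed. Closest to Errfi1 was Ccn2, a matricellular protein, at 0.19, then Has2 (0.79) and Noct (0.81). Hbegf had no near match: Ccn2 came first at 0.83, then Has2 (1.44) and Noct (1.60). The distances rest on 4 arrays and mostly on the size of the line difference.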

How the data were processed

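RNA of 4 cultures, 1 per group, was labelled with biotin and hybridised to 430A 2.0 arrays, per the labels. The authors deposited 1 linear intensity per probe set, which the submitters' processing notes credit to Affymetrix Expression Console. Version and algorithm of that step were not given in the sources used here. The trimmed mean (2% at each end) is 150.1 in all 4 arrays, so the deposited intensities carry a global scaling. No detection calls were used.

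Of 22626 probe sets that are not controls, 20380 carried exactly 1 symbol in the annotation, 691 carried several and 1555 none. From there log2(signal + 16) was centred on each array's median, the brightest probe set by mean stood for a gene, and genes at or above the median mean were kept. Array values came from Python 3.11.15 (pandas 2.3.3), and the common PTHrP effect from limma 3.58.1 in R 4.3.3, called at an adjusted p of 0.05 and tested on simulated data. limma gave every kept gene the same SE, so its p-values may overstate the precision. The p-values measure only the spread between these arrays, which may be technical.

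The family and the lists were chosen with earlier results of these data known. Named were all family genes, list genes 2-fold apart in both media, the 3 nearest to that bound among ligands, receptors and shedding genes, and the 3 genes closest in pattern to Hbegf, Ereg and Errfi1. Alternatives were other centrings, quantile normalization, pseudocounts of 1 and 64, the mean of all probe sets and other filters.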

Additional observations from a re-analysis of the deposited data

Results flagged for a closer look

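In 7 family genes the PTHrP difference had opposite signs in the lines, and in none was the difference between the lines' responses tested, since each rests on 4 single arrays. Of the 6 kept members 4 had opposite signs, as had 41.1% of all kept genes. The response in R150C cells minus that in WT cells (log2) was 0.33 in Hbegf, -0.33 in Ereg, -0.30 in Btc, -0.49 in Egfr, -0.54 in Erbb3, -0.35 in Errfi1 and 0.58 in Lrig1, each by the brightest probe set. Over all kept genes this quantity had a median of -0.16 and an SD of 0.348, so that Ereg, Btc, Egfr and Errfi1 lay within 1 SD of the median. In Hbegf the second probe set gave -0.28, the opposite sign, and in Errfi1 it gave 0.12, with PTHrP differences of -0.16 in WT and -0.04 in R150C cells, which share a sign. In Erbb3 the opposite directions rest on an R150C difference of -0.03, which was 0.01 after quantile normalization.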

How the results depend on the processing

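The limma model takes the line as a term, which pairs the control and the PTHrP array of each line. No replicate number could serve as a further block, because each group holds 1 array. For the same reason no array could be left out in turn. Hbegf, Ereg and Errfi1 were the 3 kept family genes 2-fold higher in R150C cells in both media under all 8 alternatives, and none was changed 2-fold by PTHrP. Their differences ran from 3.75 to 5.11 (Hbegf), 2.58 to 3.45 (Ereg) and 3.25 to 4.19 (Errfi1) over the media and the 6 alternatives of scaling, pseudocount and probe set choice. With the mean of all probe sets Lrig1 moved from -0.45 to 0.44 in control medium and from 0.14 to 1.36 under PTHrP. The counts over all kept genes moved more. With a pseudocount of 64 the higher and lower counts were 98 and 18 in control medium and 89 and 20 under PTHrP, and those changed by PTHrP were 6 (WT) and 3 (R150C). With no filter these 6 counts were 304, 97, 238, 139, 153 and 135, and under the filter at the 75th percentile they were 109, 10, 76, 18, 8 and 8. With a pseudocount of 1 the lower counts were 54 and 72 and the PTHrP counts 57 and 22. Centred on the kept genes, 60 were lower in control medium. The R150C PTHrP count of 14 was 9 there and without centring, and 7 when all probe sets were averaged. limma's 25 calls for PTHrP became 1 without centring, 13 at the stricter filter, and 0 after quantile normalization (333 genes at an unadjusted p under 0.05) or kept-gene centring (345 genes). The lower pathway genes in control medium, 1 in the main setting, numbered 0 with a pseudocount of 64 or the 75th percentile, 2 with a pseudocount of 1 or quantile normalization and 3 centred on the kept genes. Under PTHrP the 2 lower ones became 1 at the 75th percentile, and the 12 higher ones 7 with the mean of all probe sets. For the filters, more or fewer genes were counted; the cause of the other moves was not tested. Signals near or below 62.6 limit what can be said of Tgfa, Btc, Erbb3 and Lrig1. They also limit the exact size of the Hbegf line difference, since its WT signals were 46.9 to 66.6.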

Other observations

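Epgn, Ereg, Areg and Btc, all ligands of the EGF receptor, are neighbours on the same chromosome in RefSeq, in that order among protein-coding genes. For these neighbours the build, GRCm38.p6, served for gene order only. Of the 3 ligands with a probe set, Ereg alone differed 2-fold between the lines. Epgn, next to Ereg on one side, read 40.3 and 37.2 in WT cells and 34.7 and 32.8 in R150C cells, with differences of -0.06 and -0.15, and Btc, beyond Areg on the other side, differed by 0.23 and -0.07. Both lie below the filter, where the log2(signal + 16) scale understates changes. Farther out on the Epgn side, the chemokine gene Cxcl2 read 4.0 and 2.4 in WT cells and 14.7 and 10.1 in R150C cells, with differences of 0.71 and 0.48 on very low signals, and Cxcl1 beyond it read 109 and 102 against 69.4 and 56.9, with differences of -0.46 and -0.72. Beyond Btc, Parm1 differed by 0.28 and 0.21 and Rchy1 by -0.31 and -0.36. These neighbours were looked up after the values of Ereg were seen.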
